A study of Homo sapiens with 4 samples.

Results

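The ONECUT transcription factors ONECUT1, ONECUT2 and ONECUT3 were examined in poly(A) RNA of PC3, a long-established line of human prostate cancer cells. The members are the rows of the deposited gene table that carry these names, 3 of 60544 genes. The family was chosen by earlier values of this same contrast, in which ONECUT3 differed between the groups. Their differences between the groups are therefore given as a description, with no test. The study compared METTL3 knockdown with control, and METTL3 is the catalytic subunit of the enzyme complex that places N6-methyladenosine on messenger RNA. The control group, labelled shNC, and the group labelled sh812 had 2 libraries each, all from PC3 cells grown in the same serum-containing medium. The series design does not say which label is the knockdown, and sh812 was read as such since no label besides shNC and sh812 occurs. The labels name 1 knockdown construct and do not say whether the cells were a clone or a pool, or whether replicates were separate cultures, so error values measure only the spread between these libraries.

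ONECUT proteins bind DNA through a single cut domain followed by a homeodomain. ONECUT1, also called HNF6, acts in the developing liver, bile ducts and pancreas, and the family is also used in the retina and in motor neurons. ONECUT2 is known in prostate cancer as a driver of lineage plasticity, in which tumour cells lose dependence on androgen signalling and may take on neuroendocrine features.

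The sequence below shows how alike the 3 genes are where they are most alike, since closely similar copies can share reads. It is the most conserved 90-base window of an alignment of the 3 coding sequences in GENCODE 29 (GRCh38), and it lies in the part that encodes the cut domain. Capitals mark the 12 positions at which the 3 genes are not all identical.
ONECUT1: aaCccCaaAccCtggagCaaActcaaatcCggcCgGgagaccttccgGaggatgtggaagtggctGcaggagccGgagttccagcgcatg
ONECUT2: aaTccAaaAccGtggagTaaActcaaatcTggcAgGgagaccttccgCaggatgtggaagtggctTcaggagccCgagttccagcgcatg
ONECUT3: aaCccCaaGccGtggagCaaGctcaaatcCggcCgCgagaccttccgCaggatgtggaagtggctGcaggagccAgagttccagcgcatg

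Over the whole coding alignment, ONECUT1 and ONECUT2 were identical at 72.1% of aligned bases. The identity was 68.4% for ONECUT2 and ONECUT3, and 63.3% for ONECUT1 and ONECUT3. The longest run shared exactly by any pair of the longest transcripts was 32 bases, between ONECUT2 and ONECUT3, and is shown as the longest identical stretch within the family.
ONECUT2 and ONECUT3: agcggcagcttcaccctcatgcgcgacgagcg
No 50-base word of a member's transcripts occurred in another member. ONECUT1 and ONECUT2 shared no 50-base word with any other annotated gene on either strand, and ONECUT3 shared 38 of its 8269 words, 0.46%, with 44 other genes. GENCODE 29 places no other gene over any of the 3 on either strand.

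Total gene counts ranged from 31450648 to 37041330 per library. The targeted gene METTL3 was counted 1682 and 1379 times in shNC against 269 and 313 times in sh812, a log2 fold change of -2.42 (SE 0.11). The adjusted p was 5.54e-14 by the quasi-likelihood test of edgeR with p-values adjusted by Benjamini-Hochberg, the test behind every adjusted p given here. METTL3 overlaps TOX4 on the opposite strand. The fit covered 16802 genes, and 10.8% of them passed an adjusted p of 0.05, with 5.43% higher and 5.42% lower in sh812, and such genes are referred to as called. Counts at an unadjusted p under 0.05 are given below without the share of all tested genes at that looser threshold. The shares of called genes are no background for those counts, and no excess is read from them. The epithelial keratins KRT8 and KRT18 were abundant in every library, at group means of 232 and 154 CPM (counts per 1000000, scaled with TMM factors for library size and composition) in shNC. The prostate secretory marker KLK3 had no count in any library.

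ONECUT3 (ENSG00000205922) lies on the plus strand of chromosome 19, spanning 1752373 to 1780988 (GRCh38). Its counts were 126 and 106 in shNC, and 524 and 455 in sh812. After scaling these are 3.32 and 3.35 CPM in shNC and 14.9 and 12.7 CPM in sh812. Both sh812 libraries lay above both shNC libraries, as in 26.2% of all tested genes (53.6% did not overlap in either direction), and the shNC libraries were nearly equal. Group means were 3.34 ± 0.0211 and 13.8 ± 1.56 CPM (SD, n = 2 each), a ratio of 4.14. The fitted log2 fold change was 2.05 (SE 0.16). Each sh812 library stood from 3.79 to 4.49 times above a given shNC library. A fitted log2 fold change at least as large was found in 23 of the tested genes, ONECUT3 included. The family was chosen by this same contrast, so this rank is a description only.

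ONECUT2 (ENSG00000119547) lies on the plus strand of chromosome 18, from 57435685 to 57491297. It had 267 and 152 counts in shNC and 196 and 154 in sh812, or 7.04 and 4.81 CPM against 5.58 and 4.30 CPM. The groups overlapped, since sh812 replicate 1 lay between the shNC libraries. Group means were 5.92 ± 1.58 and 4.94 ± 0.905 CPM (SD, n = 2 each), and the fitted log2 fold change was -0.27 (SE 0.20). The difference between the groups was smaller than the difference between the shNC replicates. Replicate 1 was above replicate 2 in both groups, by 1.46 times in shNC and by 1.30 times in sh812. Without shNC replicate 1 the log2 fold change was 0.04 (SE 0.22), and without shNC replicate 2 it was -0.50 (SE 0.20), so the sign was not the same in the fits without either control library. Without sh812 replicate 1 it was -0.47, and without sh812 replicate 2 it was -0.09.

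The ONECUT2 gene model has 16234 exonic bases, longer than 98.0% of the tested genes, and long genes also differed between the libraries. In 826 tested genes with 12000 to 20000 exonic bases, the median log2 CPM, centred on each gene's mean, was 0.091 in shNC replicate 1 and -0.0023 in shNC replicate 2. It was -0.037 and -0.035 in the sh812 libraries. The same value for ONECUT2 was 0.395 and -0.150 in shNC, and 0.0635 and -0.308 in sh812. Both ONECUT2 and the median of these genes were highest in shNC replicate 1, and the part of gene length in the ONECUT2 values was not tested. With the trend on gene length removed from each library, the log2 fold change of ONECUT2 was -0.17 (SE 0.19) and that of ONECUT3 was 2.12 (SE 0.15).

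ONECUT1 (ENSG00000169856) is a minus-strand gene of chromosome 15, spanning 52756989 to 52791078. It had 2 and 4 counts in shNC and 4 and 4 in sh812. These are 0.0527 and 0.126 CPM in shNC and 0.114 and 0.112 CPM in sh812. The gene did not pass the filter on low counts. These counts of 2 or 4 lie close to the level taken as the floor, 3 counts in a library, and no fold change is given. A difference between the groups was not detectable at this depth.

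**Figure D1:**
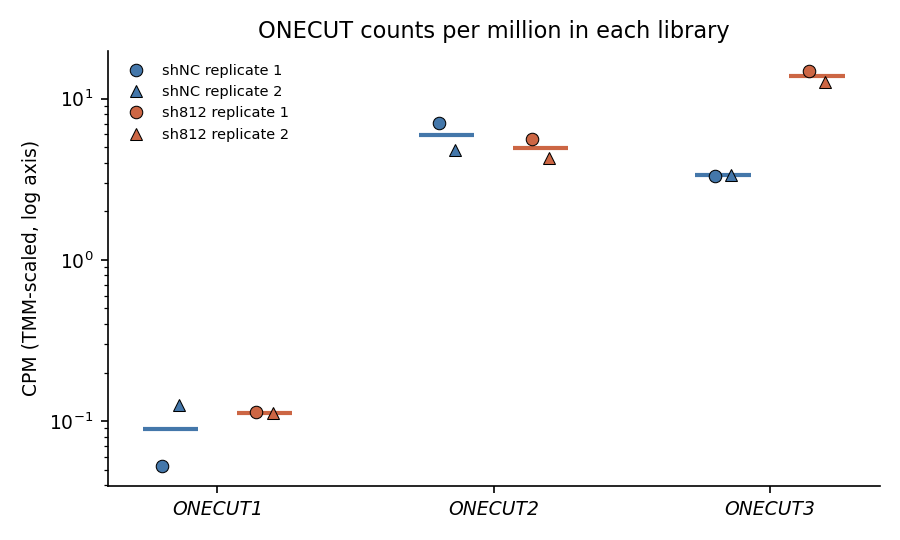
CPM (TMM-scaled, log axis) of the 3 ONECUT genes, with 1 point per library (circles replicate 1, triangles replicate 2) and bars at the group means. ONECUT3 stands at 3.32 and 3.35 CPM in shNC and at 14.9 and 12.7 CPM in sh812, the ONECUT2 groups overlap, and ONECUT1 lies near 0.1 CPM in both groups.

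Levels of different genes were compared per kilobase of exonic gene model, and the choice of gene model enters these values. In shNC, ONECUT3 stood at 0.401 ± 0.00254 and ONECUT2 at 0.365 ± 0.0973 CPM per kb (SD, n = 2), with ONECUT1 at 0.0233 ± 0.0135. The order of ONECUT2 and ONECUT3 was not the same in the shNC libraries, with ONECUT2 higher in replicate 1 and ONECUT3 higher in replicate 2. In sh812, ONECUT3 stood at 1.66 ± 0.188, ONECUT2 at 0.305 ± 0.0558 and ONECUT1 at 0.0293 ± 0.000400 CPM per kb (SD, n = 2), in the same order in both libraries. The share of ONECUT3 in the summed level of the family was 47.2% and 55.1% in shNC, and 82.8% and 83.9% in sh812. The summed level was 0.789 ± 0.0812 CPM per kb in shNC and 2.00 ± 0.244 in sh812 (SD, n = 2). None of the 3 was an abundant transcript. ONECUT3 stood above 17.3% and 18.1% of tested genes per kb in shNC and above 39.5% and 36.6% in sh812, and ONECUT2 stood above 13.6% to 18.4% in the 4 libraries.

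**Figure D2:**
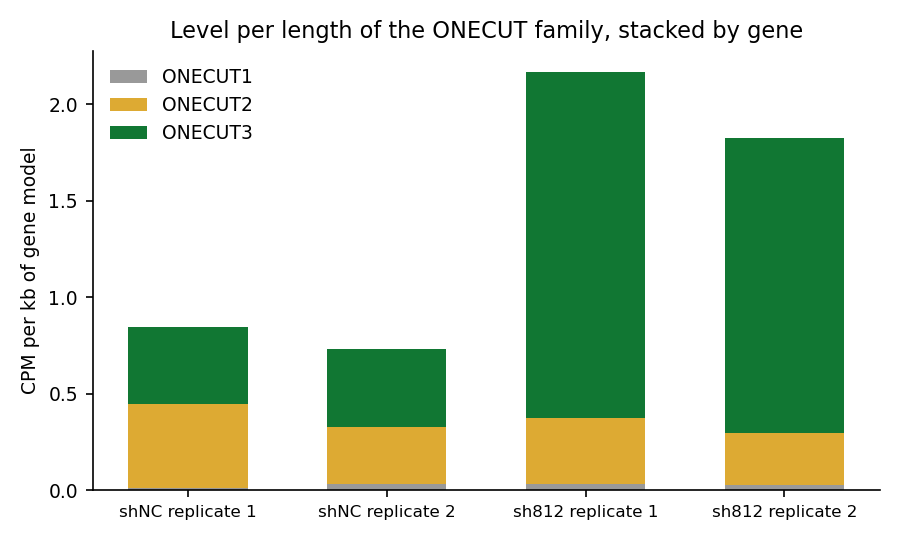
Level per length (CPM per kb of exonic gene model) of the ONECUT family in each library, stacked by gene. ONECUT3 makes up 47.2% and 55.1% of the stack in shNC and 82.8% and 83.9% in sh812, and ONECUT1 is barely visible at the base.

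**Figure D3:**
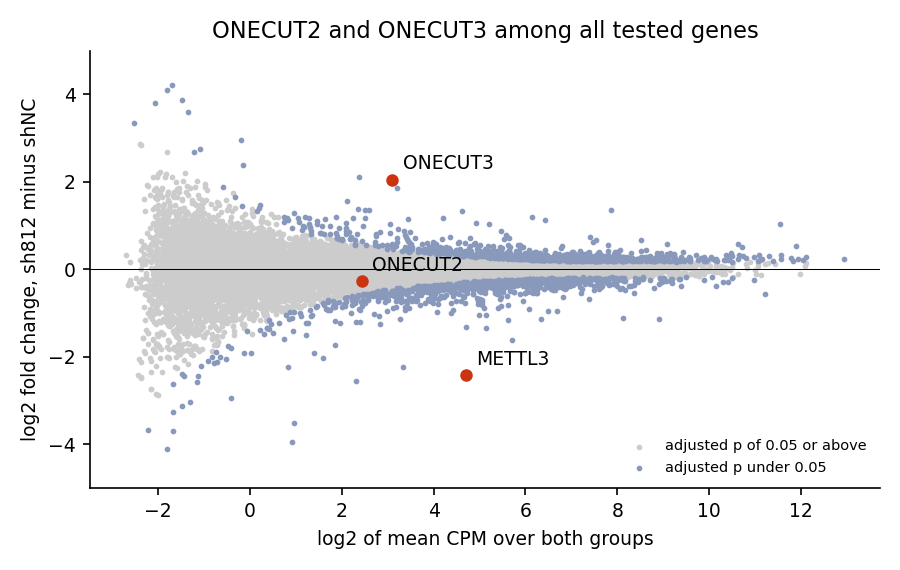
Log2 fold change of sh812 against shNC plotted against the log2 of the mean CPM, with 1 point per tested gene and 3 genes beyond the plotted range. ONECUT3 stands at 2.05, near the upper edge of the points, ONECUT2 at -0.27 lies among the bulk of genes of its abundance, and METTL3 (-2.42) is marked for comparison.

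The genes next to each ONECUT gene were examined to see whether the loci changed as a whole. Of the 18 genes formed by the 3 nearest tested genes on each side, 1 was called higher and 1 lower. Over all tested genes 5.43% were called higher and 5.42% lower, so these counts alone do not set the loci apart. Around ONECUT3, 1 of 6 was called, and the fitted changes ran from -0.31 to 0.23 (log2), far below the change of ONECUT3 itself. Their median was 0.12, and the lowest, AC005256.1, had 11 and 29 counts in shNC and 8 and 26 in sh812 (SE 0.66). In edgeR 2 of the 6 were higher and 0 lower at an unadjusted p under 0.05. REXO1, 34.3 kb away, was higher in this way (0.23, SE 0.09) but not called, and was chosen for mention after its values were seen. The called gene was TCF3, which encodes the E2A helix-loop-helix factors, with shNC at 115 and 116 CPM and sh812 at 134 and 137 CPM (log2 fold change 0.23, SE 0.06, adjusted p = 0.0149 in edgeR). That call was lost without sh812 replicate 1 (0.25, SE 0.10) and without sh812 replicate 2 (0.22, SE 0.10), with a larger SE in both fits. ATP8B3, a phospholipid flippase gene that lies 1.09 kb beyond ONECUT3, had 180 and 119 counts in shNC and 154 and 166 in sh812, and its fitted change was 0.08 (log2, SE 0.20, adjusted p = 0.858 in edgeR). It was chosen for mention after its values were seen, as the nearest gene. Around ONECUT2, edgeR called 0 of 6 genes, with 1 lower at an unadjusted p under 0.05. DESeq2, which gave 1 of the 6 no adjusted p, and limma-voom also called 0. Around ONECUT1, WDR72, a WD-repeat protein gene 723 kb away, fell from 39.1 ± 1.60 CPM to 23.6 ± 0.855 CPM (SD, n = 2; log2 fold change -0.73, SE 0.09, adjusted p = 7.14e-06 in edgeR). At that locus 0 genes were higher and 2 lower at an unadjusted p under 0.05 in edgeR. FAM214A, the nearest tested gene at 47.2 kb, had a log2 fold change of -0.38 (SE 0.14) and was not called. The tested neighbours lay as far as 2380 kb from ONECUT1 and 1771 kb from ONECUT2.

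**Figure D4:**
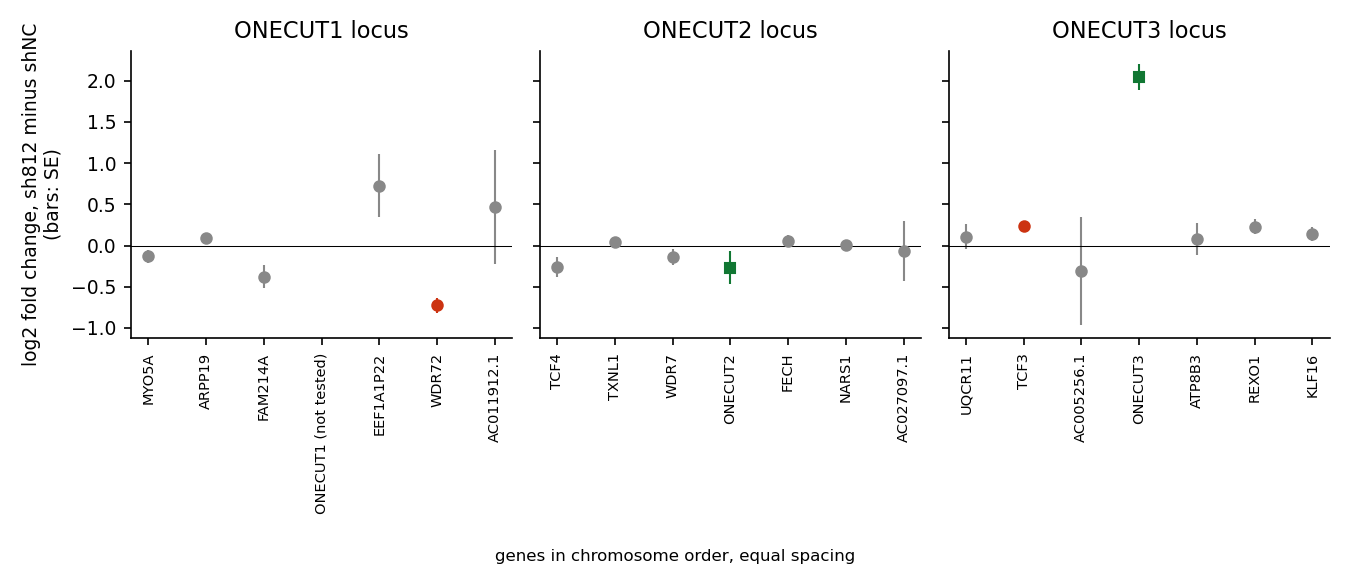
Log2 fold change with SE of the 3 nearest tested genes on each side of every ONECUT gene, in chromosome order with equal spacing (green squares: ONECUT genes, red: adjusted p under 0.05). ONECUT3 stands at 2.05 while its 6 neighbours lie between -0.31 and 0.23, and ONECUT1 has no point because it was not tested.

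Other human genes with cut domains include CUX1, CUX2 and SATB1, which encodes a chromatin organizer. CUX2 had 8 counts or fewer in every library and was not tested. None of the 3 genes of the list that were tested was called, by edgeR, DESeq2 or limma-voom, and 0 had an unadjusted p under 0.05 in edgeR. Over all tested genes edgeR called 10.8%. CUX1 was the most abundant, with means of 111 ± 2.54 CPM in shNC and 102 ± 1.72 in sh812 (SD, n = 2; log2 fold change -0.12, SE 0.06). SATB1 stood at 11.1 ± 1.02 and 12.2 ± 0.412 CPM (SD, n = 2; log2 fold change 0.13, SE 0.13). Other annotated genes overlap CUX1 and SATB1.

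Among 22 endoderm transcription factors that act with ONECUT proteins in liver and pancreas, 12 were tested. Of these, 0 were called higher and 1 lower, beside 5.43% and 5.42% of all tested genes. Their median log2 fold change was -0.012 against -0.0056 over all tested genes. In edgeR 0 were higher and 3 lower at an unadjusted p under 0.05, and DESeq2 (which gave 2 of the 12 no adjusted p) and limma-voom also called 0 higher. HNF4A, PDX1, NEUROG3 and PTF1A had no count in any library. The called gene was TBX3, a T-box repressor, with shNC at 140 and 132 CPM and sh812 at 113 and 103 CPM (log2 fold change -0.34, SE 0.07, adjusted p = 0.00159 in edgeR), and without sh812 replicate 2 its log2 fold change was -0.27 (SE 0.10) and it was not called. FOXA2, a pioneer factor of endoderm, stood at 46.3 ± 1.89 and 47.9 ± 1.01 CPM (SD, n = 2). It was not called, and it was chosen for mention after its values were seen.

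Of 18 liver genes known as ONECUT1 targets that are in the table, 4 were tested and 6 had no count in any library. SERPINA1, which encodes the protease inhibitor alpha-1 antitrypsin, had 102 and 100 counts in shNC and 16 and 28 in sh812. It fell from 2.93 ± 0.334 to 0.619 ± 0.231 CPM (SD, n = 2), and the log2 fold change was -2.23 (SE 0.36, adjusted p = 0.000177 in edgeR). It was the only gene of the list called, and in edgeR 0 were higher at an unadjusted p under 0.05, with 0 called higher by limma-voom and by DESeq2, which gave 1 of the 4 no adjusted p. The median of the 4 tested genes was -0.60, and FOXA2 is in this list too. The albumin gene ALB had 2 and 4 counts in shNC and 0 and 8 in sh812, and it was chosen for mention after its values were seen.

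The list of prostate genes tied to ONECUT2 held genes of the androgen pathway and factors reported as partners or targets of ONECUT2. Of 16 genes, 12 were tested, with a median log2 fold change of -0.10. Among the 12, 0 were called higher and 3 lower, beside 5.43% and 5.42% of all tested genes. At an unadjusted p under 0.05 in edgeR, 0 were higher and 6 lower, a looser threshold to which the shares of called genes do not apply. DESeq2 and limma-voom also called 0 higher. TMPRSS2, an androgen-regulated protease gene, fell from 9.62 ± 0.637 to 5.77 ± 1.48 CPM (SD, n = 2; log2 fold change -0.74, SE 0.17, adjusted p = 0.00546 in edgeR). Without sh812 replicate 1 its log2 fold change was -0.50 and it was not called. REST, a repressor of neuronal genes, stood at 62.8 ± 3.62 and 53.2 ± 1.15 CPM (SD, n = 2; log2 fold change -0.24, SE 0.08, adjusted p = 0.0391 in edgeR). The REST call did not hold with DESeq2 (log2 fold change -0.24), with the length trend removed (-0.18), or without shNC replicate 1 (-0.18), sh812 replicate 1 (-0.22) or sh812 replicate 2 (-0.26).

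The other genes of the list named here were not called. FOXA1, the pioneer factor of luminal prostate cells, had a log2 fold change of -0.06 (SE 0.07), and PEG10, a retrotransposon-derived gene known in neuroendocrine prostate cancer, one of 0.05 (SE 0.06). The TGF-beta signal transducer SMAD3 and the hypoxia factor HIF1A had values of -0.08 (SE 0.06) and -0.13 (SE 0.06). The glucocorticoid receptor gene NR3C1 and the histone methyltransferase gene EZH2 had values of -0.16 (SE 0.07) and -0.22 (SE 0.08). HIF1A and EZH2 were called lower with library size alone and without shNC replicate 2. When TMM was replaced by library size alone, 5 genes of the list were called lower.

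Among 24 neuroendocrine lineage genes, 9 were tested and edgeR, DESeq2 and limma-voom each called 0. Over all tested genes edgeR called 10.8%. DESeq2 gave 5 of the 9 no adjusted p. In edgeR, 2 were higher and 0 lower at an unadjusted p under 0.05, and the median log2 fold change was 0.076. The lineage factor INSM1 and the splicing factor SRRM4 had no count in any library. The secretory granule gene CHGA had 4 and 0 counts in shNC and 0 and 1 in sh812. Other genes of the list were abundant, among them ENO2 at group means of 119 CPM in shNC and 115 CPM in sh812. The 2 genes higher at an unadjusted p were STMN1 and UCHL1. STMN1 had group means of 386 CPM in shNC and 425 CPM in sh812. UCHL1 had 4 and 10 counts in shNC and 26 and 18 in sh812. ENO2, STMN1 and UCHL1 overlap other annotated genes. These genes were chosen for mention after their values were seen.

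Of 23 neuronal and retinal genes of cells that use ONECUT factors, 13 were tested, with a median log2 fold change of 0.051. Among the 13, 3 were called higher and 0 lower, beside 5.43% and 5.42% of all tested genes. Of the 13, 7 had a log2 fold change above 0 and 6 below 0. In edgeR 1 was lower at an unadjusted p under 0.05, and DESeq2 (which gave 6 of the 13 no adjusted p) and limma-voom called 0 lower. The lower gene was PROX1, with 29 and 33 counts in shNC and 8 and 11 in sh812. Its log2 fold change was -1.74 (SE 0.59), and it was not called. CALB1, a calcium-binding protein of retinal horizontal cells and many neurons, rose from 131 ± 3.59 to 336 ± 8.61 CPM (SD, n = 2; log2 fold change 1.36, SE 0.06, adjusted p = 5.54e-14 in edgeR). NEFL, the light neurofilament chain, had 309 and 320 CPM in shNC, below the 416 and 418 CPM of sh812 (log2 fold change 0.41, SE 0.06, adjusted p = 3.19e-05 in edgeR). TFAP2A, an AP-2 factor used in the retina and in epithelia, had 24.7 and 21.0 CPM in shNC, below the 35.5 and 30.5 CPM of sh812 (log2 fold change 0.53, SE 0.10, adjusted p = 0.00155 in edgeR), and without sh812 replicate 1 it stood at 0.42 (SE 0.14) and was not called. CALB1 was in view when the list was written, so its call is not independent of that choice. NEFL, TFAP2A and PROX1 overlap other annotated genes. The neurofilament genes NEFM and NEFH had 11 counts or fewer in every library and were not tested. PROX1, NEFM and NEFH were chosen for mention after their values were seen. The retinal factors CRX and OTX2 had no count in any library.

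**Figure D5:**
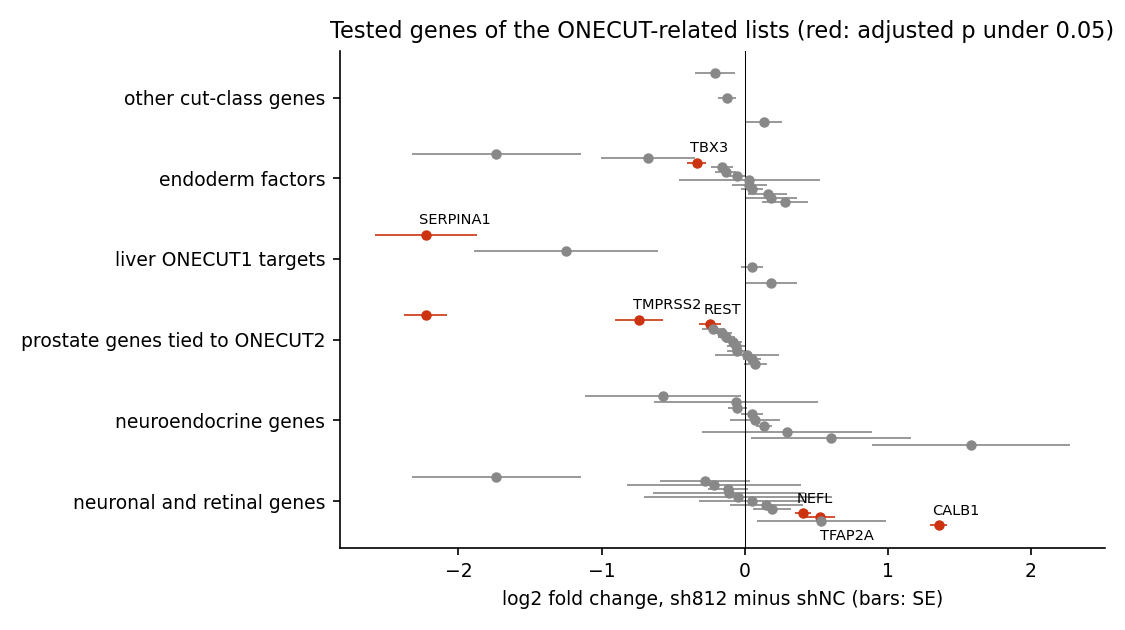
Log2 fold change with SE of every tested gene in the 6 ONECUT-related lists, with called genes in red. The named red points are TBX3, SERPINA1, TMPRSS2 and REST on the lower side and NEFL, TFAP2A and CALB1 on the higher side, and 1 red point carries no name.

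Markers of the line and of other cell types were read in the same fit. Over all tested genes 5.43% were called higher and 5.42% lower. Of 10 tested PC3 and prostate epithelial markers, 6 had a log2 fold change above 0 and 4 below 0. At an unadjusted p under 0.05 in edgeR, 4 were higher and 3 lower. DESeq2, which gave 1 of the 10 no adjusted p, called 3 higher and 1 lower, and limma-voom called 3 higher and 2 lower. In edgeR 3 were called higher and 1 lower. The 3 called higher were the adhesion genes EPCAM and CDH1 and the keratin gene KRT18, with log2 fold changes of 0.45, 0.57 and 0.30 and adjusted p-values in edgeR of 0.000128, 0.00511 and 0.00793. EPCAM, CDH1 and KRT18 overlap other annotated genes, and without sh812 replicate 2 neither CDH1 (0.41, SE 0.17) nor KRT18 (0.27, SE 0.10) was called. Of 10 markers of immune, endothelial and stromal cells, 6 were tested, 1 was called higher and 0 lower (1 lower at an unadjusted p under 0.05 in edgeR, 0 by limma-voom, and 0 by DESeq2, which gave 3 of the 6 no adjusted p), and their summed level was 67.3 to 68.2 CPM in shNC and 67.2 to 80.5 CPM in sh812. The T-cell marker CD3E had no count. The called gene was PECAM1, an endothelial adhesion gene, at 23.7 ± 0.0908 and 35.7 ± 3.96 CPM (SD, n = 2; log2 fold change 0.59, SE 0.10, adjusted p = 0.000222 in edgeR), while the endothelial gene CDH5 had 6 counts or fewer in every library. The part of these markers in the ONECUT3 values was not tested.

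The genes with profiles most like those of the members were found by the Euclidean distance of centred log2 CPM over the 4 libraries, among genes with a mean of at least 1 CPM. They were picked for their likeness in the same libraries, so their values are a description. The nearest to ONECUT3 was TRBC2, a T-cell receptor constant segment, at a distance of 0.318, with 131 and 143 counts in shNC and 533 and 495 in sh812. The count of TRBC2 is uncertain, since TRBC1 is nearly identical to it. The next was FA2H, a fatty acid hydroxylase gene, at 0.698, with 62 and 88 counts in shNC and 231 and 230 in sh812. CALB1, the ephrin receptor gene EPHB6 and the Rab regulator gene TBC1D30 followed at distances of 0.702, 0.710 and 0.722. All 5 had smaller log2 fold changes than ONECUT3, from 1.36 to 1.87.

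The profiles nearest to ONECUT2 lay at distances of 0.0330 to 0.0742 and were those of P2RX5-TAX1BP3, SOCS1, TTLL11-IT1, CEP290 and RAD54B. SOCS1, a feedback inhibitor of cytokine signalling, had 88 and 52 counts in shNC and 64 and 50 in sh812. CEP290, a ciliary gene, had 772 and 412 counts in shNC and 561 and 434 in sh812. As in ONECUT2, their highest CPM was in shNC replicate 1. Each of the 5 overlaps another annotated gene, and ONECUT2 does not.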

How the data were processed

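Poly(A) RNA of 4 PC3 libraries was sequenced as paired reads from a dUTP, strand-keeping preparation, per the labels' protocols. The authors deposited raw read counts per gene. Per the submitters' processing notes, fastp, STAR 2.7.1a, featureCounts, DESeq2 and the build hg38 were used, with no role or order given. The strand setting and the annotation release are not given in the sources used here. Total counts were 31450648 to 37041330 per library.

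All 4 libraries were tested here without covariates in edgeR 4.0.16 (R 4.3.3), using glmQLFit and glmQLFTest after TMM scaling and the default filterByExpr filter, with Benjamini-Hochberg adjustment over 16802 genes and a threshold of 0.05. The fitted prior count was 0.125, and the SE is the size of the log2 fold change divided by the root of its F value. CPM used TMM-scaled library sizes. DESeq2 1.42.0 and limma-voom (limma 3.58.1) were alternatives. Gene models and positions come from GENCODE 29 by Ensembl identifier, and 16635 tested genes had one. Its annotation may differ from that behind the counts.

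The members and the lists were chosen with earlier results of these data known. Named genes were METTL3, the members, tested cut-class genes, 8 prostate genes, up to 4 called genes per list with the smallest p, up to 4 called neighbours, and the 5 nearest profiles to ONECUT3 and to ONECUT2. Some genes that this rule selects are not reported here, though list counts and medians include them. Overlaps were taken on either strand. Replicates within a group differed by more than sampling noise (chi-square per gene 8.43 and 4.51).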

Additional observations from a re-analysis of the deposited data

How the results depend on the processing

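METTL3 kept its direction and call in every alternative run, with log2 fold changes from -2.52 to -2.33 when 1 library was left out. ONECUT3 ran from 1.93 to 2.16 and ONECUT2 from -0.50 to 0.04 with 1 library left out. A fit without 1 library leaves a group with a lone sample, which is assumed to vary like the other group. Genes called higher then numbered 261 to 1703 and lower 326 to 1549, against 912 and 910. In the same fits the called neighbours numbered 1 to 4, endoderm factors 0 to 1 higher and 0 to 1 lower, neuroendocrine genes 0 to 1 higher, and prostate genes 1 to 5 lower. ONECUT1 in shNC ran from 0.0527 to 0.126 CPM. The sign reversed for FOXA1 (-0.14 to 0.020), PEG10 (-0.010 to 0.12), P2RX5-TAX1BP3 (-0.49 to 0.038) and CEP290 (-0.53 to 0.11), and the cause was not tested.

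With library size alone, 561 genes were called higher and 1328 lower, the prostate list had 5 lower, and ONECUT1 in sh812 stood at 0.111 CPM. Without a low-count filter, 2 endoderm factors and 1 neuronal gene were lower. With the length trend removed, 1 neuroendocrine gene was higher. With counts halved, an alternative chosen after seeing the data, 2 endoderm factors and 1 neuronal gene were lower. The cause was not tested. Deviations of same-numbered libraries had a correlation of 0.0164, which cannot show whether those libraries were prepared together. A fit with the replicate block called 1003 higher and 998 lower, ONECUT3 stood at 2.05 and ONECUT2 at -0.25. The planned share of promoters with an ONECUT motif was void, since only 11360 of 16802 tested genes matched a promoter. Among tested protein-coding genes 10663 of 13250 matched (80.5%), with 79.8% of those called higher and 79.2% of those called lower.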

Other observations

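Low counts were mostly even. Among counts of 1 to 10, 70.7%, 70.8%, 71.0% and 71.4% were even in the 4 libraries. Whether read pairs or single reads were counted is not given in the sources used here. With every count halved and rounded up, ONECUT3 had a log2 fold change of 2.05 (SE 0.17) and ONECUT2 one of -0.28 (SE 0.20). The ONECUT1 counts of 2, 4, 4 and 4 are all even.

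The fitted SE of ONECUT2 was somewhat above the median for genes of its abundance. It was 0.20, against a median of 0.18 over 919 tested genes with a mean of 4 to 7 CPM, and 22.4% of those genes had a higher SE. The fit shares information on spread across genes, so this SE does not measure the variation of ONECUT2 alone.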
